A study of Mus musculus with 96 samples.

Results

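Among 42403 genomic regions bound by GATA6, 480 carried a strong OCT:SOX motif and a strong SOX17 motif without a strong GATA6 motif. They were chosen by motif class alone: the best OCT:SOX match and the best SOX17 match of the region were both in the high class of the deposited motif scores, and the best GATA6 match was not. The score is the log-odds of a match to a position weight matrix, so a higher score means a sequence closer to the motif. The lowest OCT:SOX score among the 480 was 13.0244 and the highest in the class below was 12.9919. For SOX17 the corresponding scores were 11.0568 and 10.9886. The highest GATA6 score among the 480 was 11.9907, just under the lower end of the high class. A GATA6 match of mid class was present in 227 of the 480 regions, one of low class in 197, and no GATA6 match was listed in 56. The regions are compared below with 1650 regions that had only the OCT:SOX motif in the high class, 5595 that had only the SOX17 motif in the high class, 195 with all 3 motifs in the high class, and with all regions.

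ChIP-seq (sequencing of DNA recovered with an antibody to a bound protein) was carried out for GATA6, SOX17, OCT4, SOX2 and ESRRB, in mouse KH2 embryonic stem (ES) cells, a C57BL/6 x 129/Sv line carrying a doxycycline (Dox)-inducible Gata6 cassette with an HA tag. All time points, undifferentiated cells included, carry the cassette. Cells were sampled before Dox (d0) and after 8 h, 16 h, 1, 2 and 4 days of 1 µg/mL Dox (d1, d2, d4). XEN cells, an extra-embryonic endoderm stem cell line of CD1 strain without the cassette, were profiled for GATA6, SOX17, OCT4, SOX2 and input. In the knock-down arm, Oct4 siRNA (siOCT4) or non-targeting siRNA (siCTL) was given to cells of a single clone induced for 2 days, and GATA6 and SOX17 were profiled. The inducible cells are picked clones, they were grown on feeder cells that were removed by adsorption, and GATA6 comes from a transgene in addition to the endogenous gene, which limits them as a model of the embryo. The labels list 96 libraries in 47 conditions, and 45 conditions (92 libraries) have a column in the deposited table. GATA6 at d0 and OCT4 in XEN cells are 1 library each, and most other conditions are 2. Each column holds a single value per region for all libraries of its condition, in RPM, a read number scaled to the size of the library. There is therefore no replicate spread, no test of any difference between conditions was possible, and nothing below is shown to be particular to the 480 regions.

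OCT4 and SOX2 are pluripotency transcription factors (PTFs) that bind together to a composite OCT:SOX motif, made of a short SOX part next to an octamer part that the POU domain of OCT4 reads. SOX17 is a SOX factor of the endoderm that reads nearly the same short SOX sequence and appears in the primitive endoderm (PrE), the extra-embryonic lineage that GATA6 specifies. The literature describes a canonical SOX-POU spacing read by SOX2 with OCT4 and a compressed spacing, 1 base shorter, read by SOX17 with OCT4.

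The best matches of a few regions are shown because the results below refer to them. The letters were read from the RefSeq mouse genome (GRCm38.p6, the assembly named mm10) at the coordinates deposited for each match, 5′ to 3′ on the strand given. In the OCT:SOX matches, capitals mark the 8 bases of the octamer part. The first region has the highest OCT:SOX score of the 480 (Grap2, chr15:80619175-80619189, minus strand), another lies near the gene that encodes OCT4 (Pou5f1, chr17:35504049-35504063, minus strand), another has the highest OCT4 signal at d0 (Abca4, chr3:122145521-122145535, minus strand), and the last lies in Cpn1 (chr19:43982088-43982102, plus strand).
Grap2 OCT:SOX: ctttgttATGCAAAT
Pou5f1 OCT:SOX: ctttgttATGCATCT
Abca4 OCT:SOX: cattgtcATGCTGAT
Cpn1 OCT:SOX: aattgtaATGCAGAT
In the SOX17 matches of the same regions, capitals mark bases 3 to 7 of the 9, whereas the bases identical in all 480 regions are bases 4 to 8. The Grap2 match is at chr15:80619568-80619576 on the minus strand, the Pou5f1 match at chr17:35504224-35504232 on the minus strand, the Abca4 match at chr3:122145508-122145516 on the minus strand and the Cpn1 match at chr19:43981639-43981647 on the minus strand.
Grap2 SOX17: ctTATTGtc
Pou5f1 SOX17: ttCATTGtg
Abca4 SOX17: gtCATTGtc
Cpn1 SOX17: taCATTGtc

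The SOX17 match was nearly invariant. Bases 4 to 8 of its 9 bases read A, T, T, G and T in 100% of the 480 regions, base 3 was C in 93.8% and base 9 was C in 61.9%. The OCT:SOX match was more diverse, with 415 different sequences among the regions whose match is reported here. Its octamer part was the perfect consensus atgcaaat in 51 regions (10.6%) and was at most 1 base away from it in 211. High scores fix most of these letters, so the compositions describe the choice of the regions.

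In 59 of the 480 regions (12.3%) the 2 motifs were one stretch of DNA, in that the best OCT:SOX and the best SOX17 matches overlapped. In 57 of these 59 regions both matches were on the same strand and the centre of the SOX17 match lay 5 bases upstream of the centre of the OCT:SOX match, so that the SOX17 match covers the SOX part of the OCT:SOX motif. A few of these shared elements are shown, with the 7 bases that belong to both matches in capitals. Atp5g3 is among the 8 regions with the highest summed motif scores (chr2:74154153-74154169), Nr5a2 encodes an orphan nuclear receptor of the pluripotency network (chr1:136940770-136940786), and those of Fam25c (chr14:34360118-34360134), Socs2 (chr10:95456322-95456338) and Etv6 (chr6:133963501-133963517) were picked after their values were seen, for their OCT4 signal at d2. All are on the plus strand.
Atp5g3 shared element: tgCATTGTCatgcaaag
Nr5a2 shared element: ggCATTGTCatgctaat
Fam25c shared element: ttCATTGTCttgctaat
Socs2 shared element: gtCATTGTGatgcttat
Etv6 shared element: ttCATTGTCatgcttat
Between the shared CATTG core with its final T and the octamer part there is 1 further base, C or G in the elements shown. At that place, base 7 of the OCT:SOX match, C was the letter in 71.2% of the 59 overlapping regions, whereas T was the most frequent letter (42.8%) in the 421 regions whose matches lay apart. Base 2 was A in 98.3% of the overlapping matches and T in 53.2% of those apart. The perfect octamer was present in 1 of the 59 overlapping matches and in 50 of the 421 apart. The overlap of the 2 matrices requires the SOX17 core, so base 2 is fixed by the arrangement itself. Base 7 is restricted by it as well. In an overlap of 7 bases it is base 9 of the SOX17 match, which was C (61.9%) or G (38.1%) throughout the 480 regions. The difference from the separate matches at these bases is therefore no result.

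The 421 regions with separate matches had no fixed arrangement. Both matches were on the same strand in 214 of them, and the distance between the centres had a median of 177 bp, with 55 regions within 50 bp, 116 within 100 bp and 230 within 200 bp. The largest distance was 4378 bp. A search of the whole of each region for ATTGT followed by ATGCA, on both strands, with a gap of 1 base (the canonical spacing) or none (the compressed spacing), found the canonical form in 20 of the 480 regions (4.17%) and the compressed form in 1 (0.208%). Of all regions, 0.252% held the canonical form and 0.262% the compressed form. The canonical form was present in 2.24% of regions with the OCT:SOX motif only and in 0.0715% of those with the SOX17 motif only, whereas the compressed form was present in 0.364% and 0.375%. The canonical form resembles the OCT:SOX matrix by which the regions were chosen, so its share is no result about them.

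A few OCT:SOX matches recurred word for word. The most frequent pair is shown because so many regions share them, with the octamer part in capitals. The first was found in 12 regions and the next in 8.
Most frequent: cattcttATTCAAAC
Next: cattctcATTCAAAC
All 20 regions with either of them lay in sequence that the reference marks as repeats, on 13 chromosomes. Of these 20 regions, 17 were in the class bound by PTFs at d0, 15 in the Transient and 5 in the Early&Constant GATA6 class, and 7 in the constitutive heterochromatin class. Of the 480 regions and of all regions, these classes held 68.8% and 20.8% (PTFs at d0), 57.5% and 38.4% (Transient), 31.2% and 28.0% (Early&Constant), and 10.8% and 10.2% (constitutive heterochromatin). The OCT:SOX match was in marked repeats in 105 of the 480 regions (21.9%), as in 22.3% of all regions with a match. Transient regions made up 60.0% of those with a match in repeats and 56.8% of the others.

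The regions were wide, with a median width of 733.5 bp (204 to 5380 bp) against 524 bp for all regions, 584.5 bp with the OCT:SOX motif only and 585 bp with the SOX17 motif only. A wide region has more places for a match and collects more reads, so RPM values are partly values of width. Per kb of sequence there were 4.06 OCT:SOX matches and 3.40 SOX17 matches, against 2.64 and 2.22 in all regions, and 3.18 GATA6 matches against 4.05. More than 1 OCT:SOX match was listed in 416 of the 480 regions and more than 1 SOX17 match in 369.

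GATA6 peaked closest to the OCT:SOX match. The GATA6 summit, the position of the highest GATA6 signal, lay at a median of 62.5 bp from the best OCT:SOX match, 126 bp from the best SOX17 match and, in the 424 regions with one, 92.5 bp from the best GATA6 match. In all regions the order was different: the GATA6 match was the closest, at 51 bp, and the SOX17 and OCT:SOX matches were at 106 bp and 119 bp. The OCT:SOX match lay within 50 bp of the summit in 45.4% of the 480 regions and in 26.7% of all regions with a match, whereas for the GATA6 match these shares were 38.4% and 50.0%. Of the 3 best matches, the OCT:SOX match was nearest to the summit in 204 regions (42.5%), the GATA6 match in 148 and the SOX17 match in 126. In the regions with the OCT:SOX motif only, its median distance was 48 bp, and in those with the SOX17 motif only the OCT:SOX match, there of a lower class, was 133 bp away.

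**Figure D1:**
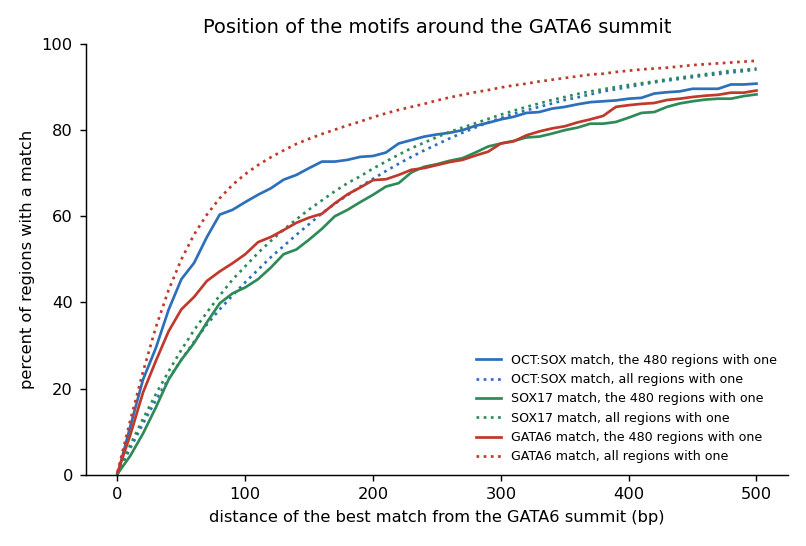
Cumulative share of regions (percent) against the distance in bp between the GATA6 summit and the centre of the best OCT:SOX, SOX17 or GATA6 match, for the 480 regions and for all regions that have a match. At 50 bp the OCT:SOX curve of the 480 regions stands at 45.4% against 26.7% for all regions, the GATA6 curve at 38.4% against 50.0%, and the SOX17 curve at 26.7% against 29.0%.

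Each region carries a class of GATA6 dynamics that the authors obtained by clustering the GATA6 signal of these same libraries: Early&Constant (bound early and kept), Transient (bound early and lost) and Late. Transient regions were the largest class, with 276 of the 480 (57.5%, against 38.4% of all regions), followed by 150 Early&Constant regions (31.2%, against 28.0%) and 54 Late regions (11.2%, against 33.6%). The Transient and Late shares lay between those of the regions with a single strong motif. With the OCT:SOX motif only, 71.9% were Transient, 19.9% Early&Constant and 8.18% Late, and with the SOX17 motif only 27.6%, 30.1% and 42.3%. With all 3 motifs strong, 53.3% were Early&Constant and 2.56% Late. Within the 480 regions the summit lay at the OCT:SOX match mainly in Transient regions, at a median of 41.5 bp, against 122 bp in Early&Constant and 127 bp in Late regions. In Late regions the SOX17 match was closer than in the others, at 74 bp, against 125 bp in Transient and 186 bp in Early&Constant regions. The GATA6 match, where listed, was at 94.5 bp in Early&Constant, 60 bp in Late and 103 bp in Transient regions. By these medians it was the closest of the 3 matches in Early&Constant and Late regions. Early&Constant regions were also the widest, with a median of 1159.5 bp against 641.5 bp in Transient and 535.5 bp in Late regions, and the part of width in these distances was not tested.

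PTFs already occupied most of the regions in ES cells. By the authors' peak calls, 330 of the 480 (68.8%) were bound by PTFs at d0, against 20.8% of all regions, 64.9% with the OCT:SOX motif only and 24.2% with the SOX17 motif only. Another 50 (10.4%, against 16.6%) gained PTFs only after induction, a class called ectopic, and 100 (20.8%, against 62.6%) had none. Chromatin in undifferentiated cells, classed from ATAC-seq, was accessible in 92 regions (19.2%, against 7.43% of all) and closed in 173 (36.0%, against 61.3%). All 92 accessible regions were in the class bound by PTFs at d0. The matching share among all accessible regions is not given here, so nothing particular to these regions is read from that count. By histone marks, 109 regions (22.7%, against 11.2% of all) were in the active enhancer class and 108 (22.5%, against 16.9%) in the primed enhancer class. Facultative heterochromatin held 60 (12.5%, against 22.3%) and constitutive heterochromatin 52 (10.8%, against 10.2%).

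SOX17 peaks were called in 235 of the 480 regions (49.0%), against 44.5% of all regions, 27.3% with the OCT:SOX motif only, 64.7% with the SOX17 motif only and 54.4% with all 3 motifs strong. The share differed between the GATA6 classes. SOX17 was called in 137 of the 150 Early&Constant regions (91.3%) and in 39 of the 54 Late regions (72.2%), but in 59 of the 276 Transient regions (21.4%). In all regions of the same classes it was called in 72.6% of Early&Constant, 53.4% of Late and 16.2% of Transient regions. Within the Early&Constant class, 73.8% of regions with the OCT:SOX motif only and 88.1% of those with the SOX17 motif only were SOX17-bound. The GATA6, SOX17 and PTF classes were called on the same libraries as the signals, so the levels given by class below describe the classes.

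GATA6 arrived early in the regions and left. Median GATA6 signal over the 480 regions was 0.653 RPM at d0, 3.60 at 8 h, 2.35 at 16 h, 1.65 at d1, 1.57 at d2, 1.16 at d4 and 0.737 in XEN cells. At 8 h the regions ranged from 0.1305 to 43.62 RPM, and the middle 50% of them from 1.91 to 7.34 RPM. In all regions the median was 0.490 RPM at d0, 1.49 at 8 h and 1.29 at d4, so that the 480 regions stood above all regions early and below them by d4. Per kb of width the 8 h median was 5.04 RPM in the 480 regions, 3.27 in all regions, 4.94 with the OCT:SOX motif only, 2.36 with the SOX17 motif only and 6.28 with all 3 motifs strong. Input was 0.852 RPM per kb at d0 in the 480 regions and 0.860 in all.

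Changes were taken per region as differences of log2(RPM + pseudocount), which understate the change of low values. From d0 to 8 h GATA6 was at least 2-fold higher in 406 of the 480 regions (84.6%), against 60.4% of all regions. From 8 h to d4 it was at least 2-fold lower in 314 (65.4%), against 34.8%, and at least 2-fold higher in 64 (13.3%), against 30.9%. The share of losing regions was 75.1% with the OCT:SOX motif only and 26.4% with the SOX17 motif only. From d4 to XEN cells GATA6 was at least 2-fold lower in 92 regions (19.2%), against 11.7%, and higher in 25 (5.21%), against 14.4%. These contrasts share their 8 h and d4 values.

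Regions without a listed GATA6 match also carried GATA6 signal. In the 56 regions without one, median GATA6 was 0.653 RPM at d0, 2.71 at 8 h and 0.646 at d4. In the 197 regions with a low-class match it was 2.91 RPM at 8 h and 0.981 at d4, and in the 227 with a mid-class match 4.46 and 2.05. Widths ran in the same order, with medians of 558.5, 649 and 919 bp. Per kb of width the GATA6 medians were closer, at 4.805, 4.905 and 5.34 RPM at 8 h. At d4 they were 1.394, 1.485 and 1.959 RPM per kb. The part of width in these levels was not tested.

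**Figure D2:**
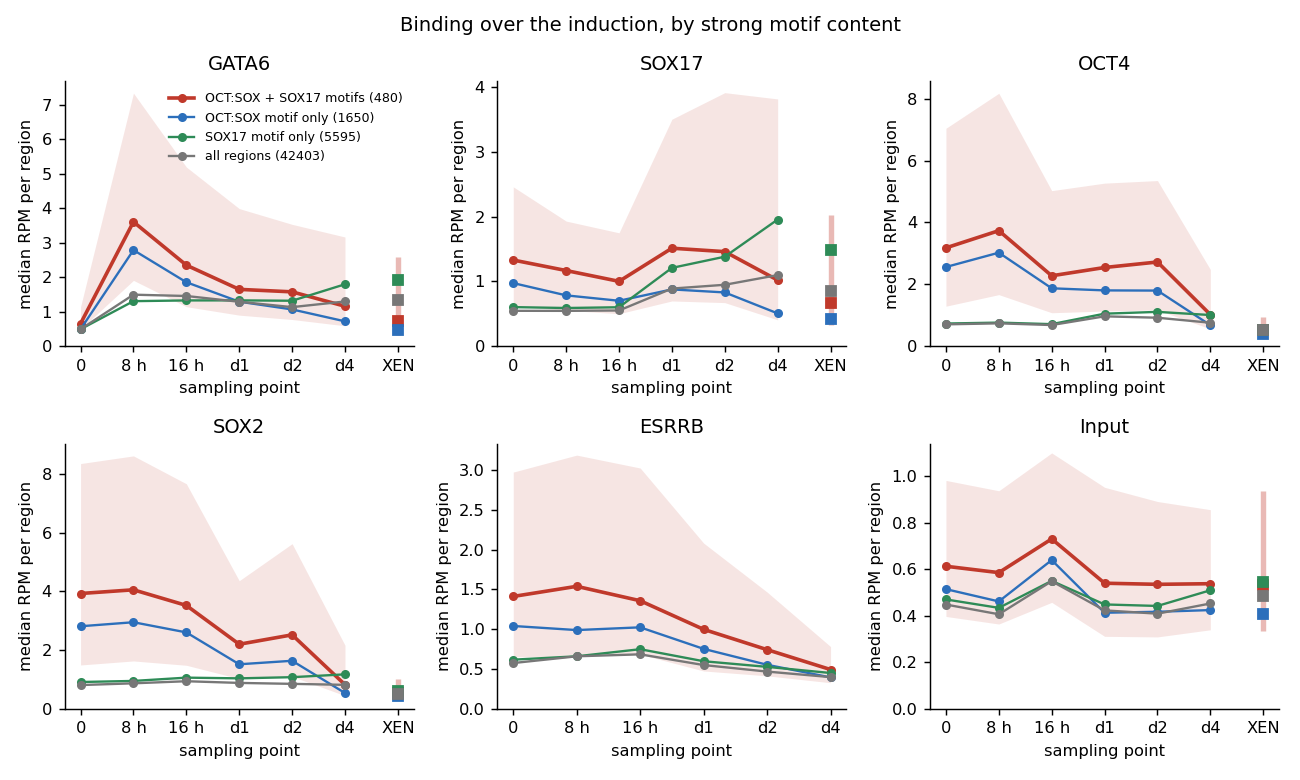
Median signal per region (RPM) of GATA6, SOX17, OCT4, SOX2, ESRRB and input at the 6 sampling points of the Dox time course (evenly spaced on the axis, not to scale) and in XEN cells (squares, a separate cell line), for the 480 regions (red, shading and bars for the middle 50% of regions), the regions with the OCT:SOX motif only, those with the SOX17 motif only and all regions. GATA6 in the 480 regions peaked at 8 h (3.60 RPM), OCT4 stayed between 2.27 and 3.73 RPM until d2 and was 1.02 RPM at d4, and SOX17 moved from 1.33 RPM at d0 to 1.46 at d2 and 1.02 at d4.

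OCT4 and SOX2 were the strongest signals before induction. Median OCT4 was 3.18 RPM at d0, 3.73 at 8 h, 2.27 at 16 h, 2.54 at d1, 2.72 at d2, 1.02 at d4 and 0.533 in XEN cells. Median SOX2 was 3.92 RPM at d0, 4.05 at 8 h, 3.52 at 16 h, 2.20 at d1, 2.52 at d2, 0.820 at d4 and 0.533 in XEN cells. In all regions OCT4 was 0.703 and SOX2 0.807 RPM at d0, and over the Dox course they ran from 0.681 to 0.963 RPM and from 0.807 to 0.938 RPM. The 480 regions thus started well above all regions and came close to them by d4.

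Neither factor changed 2-fold in the first 8 h. None of the 480 regions was 2-fold higher or lower for OCT4 from d0 to 8 h, against 0.0283% and 0.111% of all regions, and none for SOX2, against 0.00236% and 0.0330%. The median change of OCT4 was +0.21 on the log2 scale, against +0.08 in all regions. By d2, OCT4 was at least 2-fold lower than at d0 in 78 regions (16.2%), against 4.86%, and higher in 47 (9.79%), against 14.6%. SOX2 was lower in 107 (22.3%), against 6.70%. From d2 to d4 OCT4 was lower in 252 regions (52.5%), against 17.5%, and SOX2 in 252 as well, against 17.0%. The loss of OCT4 from d2 to d4 was counted in 227 of the 330 regions bound by PTFs at d0 (68.8%), and in 53.4% of all regions of that class.

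ESRRB, an orphan nuclear receptor and also a PTF, was lower from d1 on. Its median was 1.41 RPM at d0, 1.54 at 8 h, 1.36 at 16 h, 0.997 at d1, 0.743 at d2 and 0.493 at d4. It was at least 2-fold lower at d2 than at d0 in 165 of the 480 regions (34.4%), against 11.4% of all regions, and lower at d4 than at d2 in 109 (22.7%), against 10.8%. Its motif was in the high class in 62 of the regions (12.9%, against 8.67% of all) and not listed in 256 (53.3%, against 63.7%). Input gave the background: its medians ran from 0.530 to 0.730 RPM, and from d0 to d4 it was 2-fold higher in 1 region, against 1.08% of all, and lower in 8 (1.67%), against 0.790%.

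SOX17 signal was higher after induction in some of the regions and lower in others. Median SOX17 was 1.33 RPM at d0, 1.17 at 8 h, 1.00 at 16 h, 1.51 at d1, 1.46 at d2, 1.02 at d4 and 0.665 in XEN cells. In all regions it went from 0.545 RPM at d0 to 1.10 at d4, and with the SOX17 motif only from 0.602 to 1.96. From d0 to d2 SOX17 was at least 2-fold higher in 123 of the 480 regions (25.6%), against 33.1%, and lower in 57 (11.9%), against 2.42%. From d0 to d4 it was higher in 131 (27.3%), against 44.5%, and lower in 142 (29.6%), against 8.72%. The median change of all regions was +0.595 on the log2 scale from d0 to d2 and +0.788 from d0 to d4. Relative to these medians, the balance turned to lower values at d2, with a median of -0.381 in the 480 regions, 76 of them higher (15.8%, against 16.4% of all) and 138 lower (28.8%, against 10.4%). At d4, on the same basis, 79 were higher (16.5%, against 25.6%) and 251 lower (52.3%, against 24.5%). From d4 to XEN cells it was lower in 90 (18.8%), against 16.9%.

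SOX17 signal stood above input in many of the regions already at d0. At d0 the SOX17 value was at least 2 times the input value in 255 of the 480 regions (53.1%), against 15.8% of all regions. Across the 480 regions the SOX17 signal at d0 had a Spearman correlation of 0.948 with the SOX2 signal at d0, and of 0.843 with input. These points share region width and reads of the same cells, so the correlations are descriptions. Whether the antibody recovered SOX2 or another SOX protein at d0 was not tested, and falls of SOX17 from d0 include the fall of that signal.

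**Figure D3:**
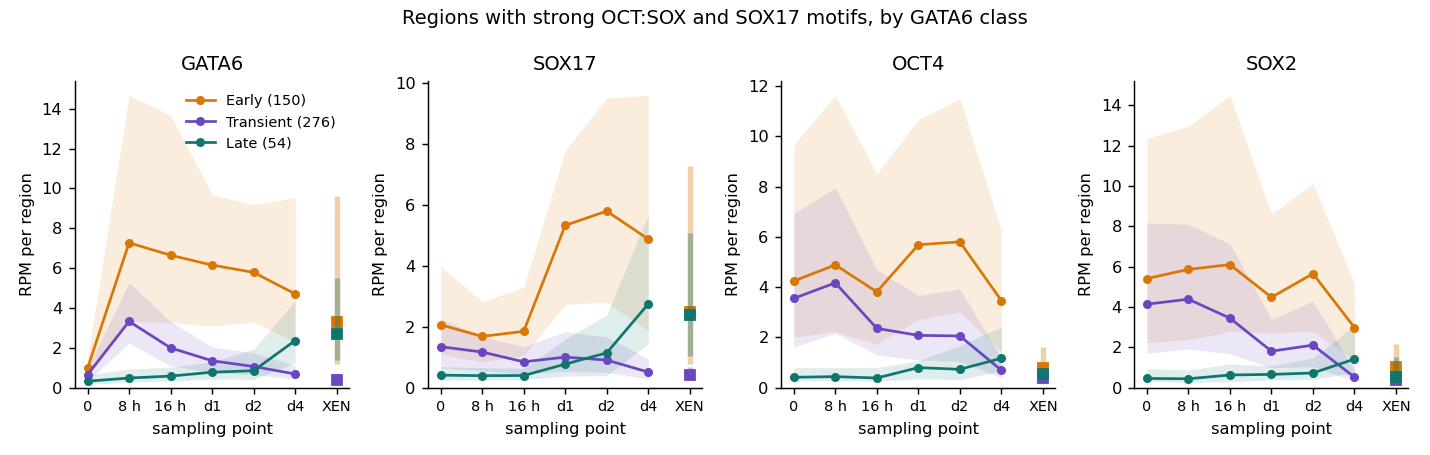
Median RPM (points) with the middle 50% of regions (shading and bars) for GATA6, SOX17, OCT4 and SOX2 at the 6 sampling points of the Dox course (evenly spaced on the axis) and in XEN cells (squares), for the 150 Early&Constant (labelled Early), 276 Transient and 54 Late regions among the 480. At d2 the Early&Constant regions held 5.80 RPM of SOX17 and 5.80 RPM of OCT4, against 0.907 and 2.06 RPM in Transient regions.

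The behaviour of OCT4 and SOX17 differed between the GATA6 classes. In the 150 Early&Constant regions, median GATA6 was 7.27 RPM at 8 h and 4.71 at d4, SOX17 was 2.07 RPM at d0 and 5.80 at d2, and OCT4 was 4.24 RPM at d0, 5.80 at d2 and 3.46 at d4. Median OCT4 there was higher at d2 than at d0, as was SOX17, whereas ESRRB went from 2.12 RPM at d0 to 1.39 at d2 and 0.881 at d4, and SOX2 from 5.41 RPM at d0 to 5.65 at d2 and 2.98 at d4. In the 276 Transient regions, GATA6 was 3.33 RPM at 8 h and 0.689 at d4, OCT4 was 3.55 RPM at d0, 2.06 at d2 and 0.694 at d4, and SOX17 was 1.35 RPM at d0 and 0.514 at d4. All of them were low by d4. In the 54 Late regions, GATA6 was 0.485 RPM at 8 h and 2.37 at d4 and SOX17 0.411 RPM at d0 and 2.75 at d4, with OCT4 at 0.414 RPM at d0 and 1.17 at d4.

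Counted per region, OCT4 was at least 2-fold higher at d2 than at d0 in 31 of the 150 Early&Constant regions (20.7%) and lower in 3, and higher in 3 of the 276 Transient regions and lower in 74 (26.8%). In all regions of these classes OCT4 was higher in 28.9% and lower in 0.682% of Early&Constant regions, and higher in 4.22% and lower in 12.0% of Transient regions. SOX17 was at least 2-fold higher at d2 than at d0 in 87 Early&Constant regions (58.0%), 23 Late (42.6%) and 13 Transient regions (4.71%). In all regions of these classes the shares for SOX17 were 60.7%, 33.3% and 12.7%. Of the 50 ectopic regions, where PTFs were called only after induction, 33 (66.0%) were 2-fold higher for OCT4 and 42 (84.0%) for SOX17 at d2, with median OCT4 of 1.24 RPM at d0 and 2.97 at d2. In all ectopic regions these shares were 55.0% for OCT4 and 77.1% for SOX17.

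Regions in which the 2 matches overlapped had lower early signals of OCT4, SOX2 and GATA6 than those with separate matches. Median OCT4 at d0 was 2.17 RPM in the 59 overlapping and 3.26 RPM in the 421 separate regions, SOX2 was 2.74 and 4.04 RPM, and GATA6 at 8 h 2.65 and 3.72 RPM. Their widths, 591 and 763 bp, differed in the same direction. Per kb of width these medians were 3.193 and 4.107, 3.746 and 5.334, and 4.512 and 5.148 RPM. Later signals were not all lower. Per kb, SOX17 at d2 was 2.292 RPM in overlapping and 1.967 RPM in separate regions, and GATA6 at d4 1.632 and 1.595 RPM. The changes over time were alike in size, with SOX17 at least 2-fold higher from d0 to d2 in 25.4% of the overlapping and 25.7% of the separate regions and GATA6 higher from d0 to 8 h in 88.1% and 84.1%.

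Knock-down of Oct4 asked whether GATA6 and SOX17 depended on OCT4. With siCTL and siOCT4, median GATA6 over the 480 regions was 1.59 and 1.47 RPM, and the median change was -0.215 on the log2 scale, against -0.004 in all regions. GATA6 was at least 1.5-fold lower with siOCT4 in 129 of the 480 regions (26.9%), against 17.4% of all regions, and higher in 47 (9.79%), against 18.6%. The share that lost GATA6 was 32.6% with the OCT:SOX motif only, 13.2% with the SOX17 motif only and 25.1% with all 3 motifs strong.

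The direction followed the GATA6 class, as the class medians did in all regions. GATA6 was at least 1.5-fold lower in 92 of the 276 Transient regions and higher in 5, with a median change of -0.31. In the Early&Constant class 36 of 150 were lower and 14 higher, with a median of -0.17. In the Late class 28 of 54 were higher and 1 was lower, with a median of +0.69. In all regions the medians of the classes were -0.31 for Transient, -0.06 for Early&Constant and +0.48 for Late. Among the 50 ectopic regions, median GATA6 was 7.75 RPM with siCTL and 6.29 with siOCT4.

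SOX17 was higher with siOCT4 across the whole table. It was at least 1.5-fold higher in 175 of the 480 regions (36.5%), against 45.4% of all regions, and lower in 26 (5.42%), against 2.84%. The median change was +0.35, against +0.52 in all regions. Taken relative to that shift of all regions, 49 of the 480 (10.2%) were higher, against 16.6%, and 128 (26.7%) were lower, against 15.3%, and the median change fell below 0. Before that centring, the median change of SOX17 was +0.91 in Late, +0.50 in Early&Constant and +0.15 in Transient regions. Only the Late median lay above the +0.52 of all regions. Summed over all regions, SOX17 signal was 73730 RPM with siCTL and 116600 RPM with siOCT4.

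**Figure D4:**
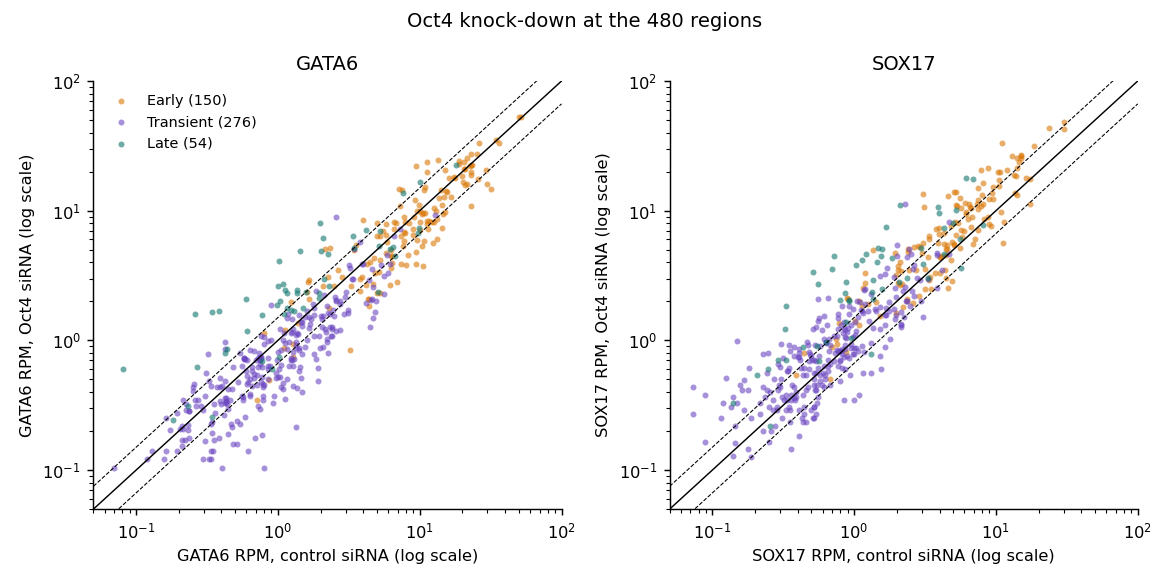
GATA6 (left) and SOX17 (right) signal of each of the 480 regions in RPM on log axes, with control siRNA (x) and Oct4 siRNA (y), coloured by GATA6 class (Early for Early&Constant). The solid line marks equal values and the dashed lines 1.5-fold on the raw RPM. For GATA6, 92 of the 276 Transient regions were counted as lower and 28 of the 54 Late regions as higher. The class medians of all regions went in the same directions. For SOX17, 175 of the 480 were counted as higher (36.5%, against 45.4% of all regions) and 26 as lower (5.42%, against 2.84%).

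Most of the regions lay over 10 kb from a protein-coding start site, with 120 of the 480 within that distance. By GENCODE M21, 271 (56.5%) were intergenic, 188 (39.2%) intronic and 6 exonic, and 15 (3.12%, against 6.56% of all regions) lay within 1000 bp of a protein-coding start site. The median distance of the summit to the closest start site was 35828 bp, against 25683 bp in all regions. They were spread over 463 closest genes, 17 of which were closest to 2 regions. Of 30 pluripotency genes chosen for the comparison, 4 (Pou5f1, Nr5a2, Lefty1 and Tet2) were the closest gene, within 100 kb, of one region each (0.833% of the 480, against 0.531% of all regions). None of 30 PrE genes was, against 0.597% of all regions and 0.769% of those with the SOX17 motif only. No direction is read from counts of this size.

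The region near Pou5f1, which encodes OCT4, lay 1959 bp upstream of the start site (chr17:35503642-35504431), with its OCT:SOX match 3 bp from the GATA6 summit. OCT4 signal there was 9.33 RPM at d0, 9.91 at 8 h, 8.93 at 16 h, 11.5 at d1, 15.75 at d2, 4.25 at d4 and 0.267 in XEN cells. GATA6 was 1.14 RPM at d0, 9.84 at 8 h, 10.96 at 16 h, 6.89 at d1, 6.47 at d2, 2.28 at d4 and 0.470 in XEN cells. GATA6 thus appeared within 8 h at a region that OCT4 kept until d2. SOX17 was 3.77 RPM at d0, 6.78 at d2 and 2.45 at d4, and GATA6 was 5.95 RPM with siCTL and 3.29 with siOCT4. The class of the region was Transient, with SOX17 and PTFs called.

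The other pluripotency genes had weaker signals. At Lefty1, which encodes an inhibitor of Nodal signalling, the region 10156 bp upstream (chr1:180924594-180925070) held no GATA6 match, and GATA6 was 0.490 RPM at d0, 2.86 at 8 h, 3.66 at 16 h and 0.617 at d4 while OCT4 went from 4.36 RPM at d0 to 0.620 at d4. In an intron of Tet2, which encodes an oxidase of methylated cytosine, GATA6 was 3.58 RPM at 8 h and 1.53 at d4 and OCT4 2.21 RPM at d0 and 1.21 at d4 (chr3:133517830-133518579). Both were Transient regions. The region in an exon of Nr5a2 (chr1:136940442-136941033), with a shared element, had values that jumped between columns: GATA6 was 10.8 RPM at d0 and 0.889 at 8 h, SOX2 was 2.04 RPM at d1, 16.04 at d2 and 17.5 at d4, and input was 0.447 RPM at d2 and 4.24 in XEN cells. No direction is drawn from it.

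The region in an intron of Abca4, a lipid transporter gene, had the highest OCT4 signal of the 480 at d0 (chr3:122145084-122146260). OCT4 was 69.9 RPM at d0, 75.9 at 8 h, 92.3 at 16 h, 66.7 at d1, 50.7 at d2, 9.14 at d4 and 0.800 in XEN cells, with input between 0.164 and 1.65 RPM. GATA6 was 1.80 RPM at d0, 33.9 at 8 h, 39.7 at 16 h, 19.2 at d1, 17.8 at d2 and 6.09 at d4, and SOX17 went from 8.04 RPM at d0 to 21.2 at d2 and was 3.03 at d4. The centres of its OCT:SOX and SOX17 matches were 16 bp apart. With siOCT4 GATA6 was 10.8 RPM against 23.1 with siCTL, and SOX17 was 11.3 against 17.4. The region was in the constitutive heterochromatin class by histone marks, although moderately accessible and bound by PTFs at d0.

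The regions with the highest GATA6 at 8 h were those of Zfp704, Cpn1 and Mybl2. Upstream of Zfp704, which encodes a zinc finger protein, GATA6 was 43.6 RPM at 8 h and 2.72 at d4, and OCT4 23.5 RPM at d0 and 2.62 at d4 (chr3:9653705-9655547). Both factors were lost there by d4. In an intron of Cpn1, which encodes a subunit of carboxypeptidase N, GATA6 was 0.490 RPM at d0, 37.4 at 8 h, 21.05 at d2 and 4.26 at d4, and OCT4 went from 16.4 RPM at d0 to 31.2 at d2 (chr19:43981525-43982765). Upstream of Mybl2, which encodes the cell cycle transcription factor B-MYB, GATA6 stayed at 35.5 RPM at 8 h, 22.45 at d4 and 25.8 in XEN cells, and SOX17 was 9.65 RPM at d0 and 20.5 at d4 (chr2:163051162-163053501). The Cpn1 region was closed at d0 and that of Mybl2 accessible. Both were picked for high GATA6 at 8 h, so the similar size of these values follows from the choice. Among the regions selected by motif class, median GATA6 at 8 h was 1.926 RPM in closed and 5.155 RPM in accessible regions. Per kb of width these medians were 3.536 and 6.895 RPM.

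Other regions were picked for the highest SOX17 at d4 or GATA6 in XEN cells, so high late signal there follows from the choice. Upstream of Clic6, a chloride channel family gene, GATA6 was 0.490 RPM at d0, 5.93 at 8 h, 12.05 at 16 h, 20.7 at d1, 29.8 at d2, 47.4 at d4 and 94.0 in XEN cells (chr16:92491863-92494733). SOX17 there was 1.92 RPM at d0, 33.4 at d2, 51.9 at d4 and 65.1 in XEN cells, and OCT4 2.77 RPM at d0 and 16.0 at d2. Both were far higher from d1 on at a region without PTFs at d0, while its input also went up, from 1.91 RPM at d0 to 6.63 in XEN cells. In an intron of Arhgap21, GATA6 was 25.4 RPM at 8 h, 29.9 at d4 and 47.5 in XEN cells, with SOX17 at 4.70 RPM at d0 and 31.1 at d4 (chr2:20929161-20931028). In the region closest to Fgf10, a fibroblast growth factor gene 110629 bp away, GATA6 was 29.8 RPM at 8 h and 34.45 at d4, and OCT4 went from 11.96 RPM at d0 to 36.8 at d4 (chr13:118602827-118606564). The region closest to Rfx3, which encodes a transcription factor of ciliated cells, was bound mainly in XEN cells, with GATA6 at 4.42 RPM at d4 and 44.3 in XEN cells (chr19:28071453-28074134).

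**Figure D5:**
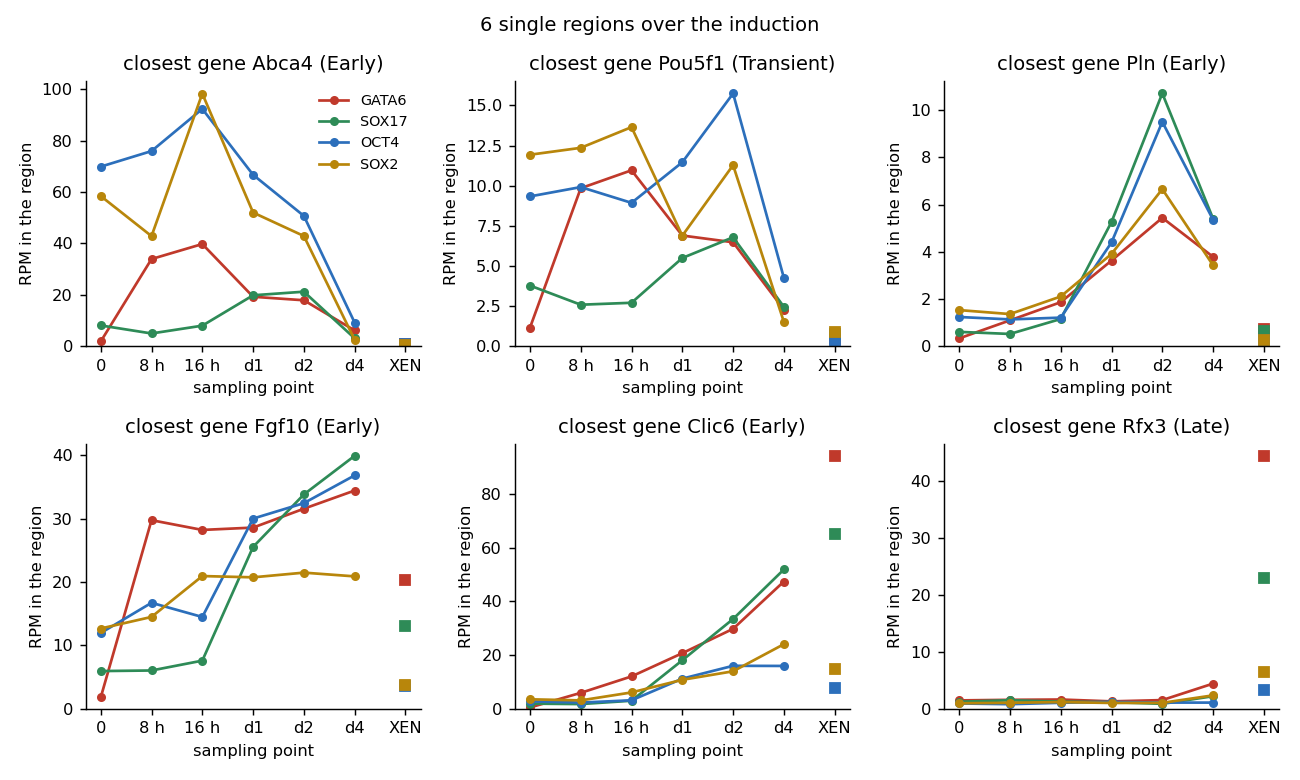
Signal in RPM of GATA6, SOX17, OCT4 and SOX2 at the regions closest to Abca4, Pou5f1, Pln, Fgf10, Clic6 and Rfx3 (GATA6 class in brackets, Early for Early&Constant), at the 6 sampling points of the Dox course (evenly spaced on the axis) and in XEN cells (squares), one pooled value per point and no error. OCT4 at Abca4 was 69.9 RPM at d0 and 9.14 at d4, and at Pou5f1 it was 9.33 RPM at d0 and 15.75 at d2.

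The regions with the highest motif scores ranged widely in OCT4 signal. The 8 regions with the highest summed scores had OCT4 between 0.816 and 10.1 RPM at d0. The median at d0 was 3.18 RPM in the 480 regions and 0.703 RPM in all regions. At Grap2, an adaptor gene of T cell signalling whose intron holds the best OCT:SOX match, OCT4 was 7.16 RPM at d0 and 0.513 at d4 and GATA6 was 1.80 RPM at d0, 2.78 at 8 h and 0.379 at d4 (chr15:80618924-80619717). At the shared element closest to Atp5g3, OCT4 was 0.816 RPM at d0 and 1.25 at d4 and SOX17 0.302 RPM at d0 and 1.98 at d4 (chr2:74154016-74154346). At the region closest to Slc8a1, a sodium-calcium exchanger gene 568200 bp away, OCT4 was 6.95 RPM at d0 and 12.7 at d2 and SOX17 2.46 and 8.12 RPM (chr17:82305780-82307010).

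Shared elements with high OCT4 differed from each other after d2. At Fam25c, OCT4 was 15.4 RPM at d0, 25.5 at d2 and 15.85 at d4, and SOX17 was 6.40, 24.0 and 24.5 RPM (chr14:34359329-34360929). At Socs2, which encodes a suppressor of cytokine signalling, OCT4 was 19.7 RPM at d0, 19.15 at d2 and 1.85 at d4, and SOX17 was 4.03, 5.96 and 0.881 RPM (chr10:95455976-95456708). GATA6 with siCTL and siOCT4 was 23.5 and 22.6 RPM at Fam25c, and 6.21 and 2.68 RPM at Socs2. So one kept its factors at d4 and the other lost them.

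The largest falls of GATA6 with siOCT4, among the 206 regions with a mean of at least 2 RPM, were on the log2 scale -1.73 at the region closest to Mms22l, -1.67 at a region closest to Akr1d1, -1.54 in Epb41l3, -1.44 near Hsd17b3 and -1.43 near Tmx4. Near Tmx4, which encodes a thioredoxin-related membrane protein, GATA6 was 10.49 RPM with siCTL and 3.77 with siOCT4, and SOX17 was 4.597 and 2.52 RPM (chr2:134658141-134659239). OCT4 there went from 1.98 RPM at d0 to 6.50 at d2. In an intron of Epb41l3, a cytoskeletal protein gene, GATA6 was 4.70 and 1.49 RPM and SOX17 2.96 and 2.02 RPM (chr17:69276911-69278664). All 5 regions were in the class bound by PTFs at d0 (68.8% of the 480), and 2 were Early&Constant (31.2% of the 480). They were picked for the size of the fall, and that in Epb41l3 reached the mean of 2 RPM only through siCTL. No link is read from 5 regions.

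Among the largest rises were +1.92 in Nr6a1, +1.82 in Csgalnact1, +1.72 near Cdk13 and +1.47 in an intron of Trpm1. In Nr6a1, which encodes germ cell nuclear factor, a repressor of Pou5f1, GATA6 was 1.98 RPM with siCTL and 8.04 with siOCT4 and SOX17 was 2.09 and 11.1 RPM (chr2:38790626-38791508). In the time course the same region had GATA6 at 1.79 RPM at d2 and 6.12 at d4. At Csgalnact1, which encodes an enzyme of chondroitin sulfate synthesis, GATA6 was 1.02 and 4.09 RPM with the siRNAs, and 1.12 RPM at d2 and 9.07 at d4 in the time course (chr8:68645817-68647345). Near Cdk13, a cyclin-dependent kinase gene, GATA6 was 2.57 and 8.90 RPM and SOX17 2.30 and 11.2 RPM (chr13:17843210-17844712). Of these regions, that near Cdk13 was Transient (57.5% of the 480) and the others were Late (11.2% of the 480). Those in Nr6a1 and Csgalnact1 reached the mean of 2 RPM only through siOCT4, so their rises follow in part from the choice.

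Among the regions with the largest OCT4 rise from d0 to d2, OCT4 went from 0.194 to 2.61 RPM in an intron of Plekhh2, from 0.362 to 4.34 in an exon of Efr3a, from 1.23 to 9.51 at the region closest to Pln and from 0.553 to 2.81 at a second region closest to Akr1d1. SOX17 was higher at the same time, from 0.303 to 4.10 RPM in Plekhh2, from 0.231 to 5.59 in Efr3a and from 0.602 to 10.7 at Pln. GATA6 at 8 h was 0.376, 0.472 and 1.09 RPM at these 3, and 3.05, 3.36 and 5.44 RPM at d2. All were closed at d0, as were 36.0% of the 480 regions and 61.3% of all regions. All were in the ectopic PTF class, which held 10.4% of the 480 and 16.6% of all regions. That class was called on the same OCT4 libraries as the rise, so it follows largely from the choice. At the Pln region (chr10:53092300-53093064), GATA6 was 9.44 RPM with siCTL and 3.85 with siOCT4 and SOX17 11.15 and 5.68 RPM, whereas in Plekhh2 (chr17:84549435-84550134) SOX17 was 4.29 and 4.63 RPM.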

How the data were processed

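ChIP-seq libraries were processed by the authors, who used bcl2fastq, cutadapt, Bowtie2 and SAMtools on mm10 per the submitters' processing notes, called peaks with MACS2 and counted reads per GATA6 region with bamsignals. The deposited values are RPM, scaled by the authors to library size, with the libraries of a condition pooled. The motif score deposited by the authors is that of the best match found by FIMO with JASPAR matrices, and classes of the score, of GATA6, SOX17 and PTF binding, of accessibility and of chromatin are deposited beside it.

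From these, members of the motif classes were selected, and medians over regions, per-region differences of log2(RPM + pseudocount) and counts past 2-fold (1.5-fold for the knock-down) were computed. The pseudocount was percentile 5 of each assay, 0.193 RPM for GATA6, 0.192 for SOX17, 0.167 for OCT4, 0.195 for SOX2, 0.164 for ESRRB and 0.159 for input. No value was filtered. Depth is pooled: the low values of 4 columns are whole multiples, within 0.1, of a single read value, which gives a depth of 6.12 M reads for GATA6 at d0, 7.50 M for OCT4 in XEN cells, 9.10 M for ESRRB at 8 h and 20.0 M for SOX17 at 16 h. The lowest listed value was between 0.0377 and 0.183 RPM, and no region was at 0. Depths of the other columns are not known.

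The regions, gene lists and comparisons were chosen with earlier results of these data known. Regions named are the 8 with the highest summed scores, those within 100 kb of a listed gene (at most 15), the 3 highest for OCT4 at d0, GATA6 at 8 h, SOX17 at d4 and GATA6 in XEN cells, the 5 largest falls and rises of GATA6 in the knock-down with a mean of at least 2 RPM, and the 5 largest OCT4 rises from d0 to d2 with a mean of at least 1 RPM. Only some are described, and 1 of the rises is not reported here. Sequences of matches on chromosome 18 are not reported. GATA6 matches of some regions are listed shorter than the motif, and their letters were not used. A class that holds the outcome of the authors' own knock-down test was not used, nor were 14 columns of accessibility and histone marks of libraries outside the labels. Input of the knock-down was not used here. The counting was tested on simulated data. Calculations used Python 3.11.15, numpy 2.4.6, pandas 2.3.3, scipy 1.17.1 and pysam 0.24.0, and figures matplotlib 3.10.9.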

Additional observations from a re-analysis of the deposited data

How the results depend on the processing

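Counts of regions past a fold depended most on the pseudocount, since many values are low. Shares of all regions were computed only for the centred counts and the gene distance. The other shares below describe the 480 regions alone. With a pseudocount 10 times larger the shares of the 480 regions were 50.6% for GATA6 higher from d0 to 8 h, 37.7% lower from 8 h to d4 and 3.12% lower from d4 to XEN cells. For SOX17 they were 13.8% higher from d0 to d2, 17.1% higher and 4.38% lower from d0 to d4, and 7.29% lower from d4 to XEN cells. They were 3.54% (OCT4 lower, d0 to d2), 23.5% (OCT4 lower, d2 to d4), 4.79% and 27.5% (SOX2 lower, d0 to d2 and d2 to d4), and 8.12% and 5.0% (ESRRB lower, the same contrasts). In the knock-down they were 5.21% higher and 7.50% lower for GATA6 and 15.2% higher for SOX17. With a pseudocount 10 times smaller, 29.4% were lower for GATA6 from d4 to XEN cells. After subtraction of input, 33.8% were lower for GATA6 and 32.5% for SOX17 from d4 to XEN cells, and 56.7% and 45.4% for ESRRB from d0 to d2 and d2 to d4. Centred on the median change of all regions, 39.6% were higher for GATA6 from d0 to 8 h (22.4% of all regions). For SOX17, 15.8% were higher from d0 to d2 (16.4% of all). From d0 to d4, 16.5% were higher and 52.3% lower for SOX17 (25.6% and 24.5% of all). From d0 to d2, 28.1% were lower for OCT4 (8.29% of all) and 19.0% for ESRRB (5.6% of all). With siOCT4, 10.2% were higher for SOX17 (16.6% of all). The median log2 changes turned from positive to negative under that centring for SOX17 from d0 to d2 (-0.381), SOX2 and ESRRB from d0 to 8 h (-0.037 and -0.024) and SOX17 with siOCT4 (-0.17). With only regions whose mean over both conditions was at least the median of all regions, 30.6% were lower for SOX17 from d4 to XEN cells. Within 10 kb, 2 of the 480 regions (0.417%, against 0.196% of all) were close to a pluripotency gene. Leaving out the 227 regions with a mid-class GATA6 match moved none of the 16 shares by over 1.5 times, and an overlap of at least 5 bases was met by 58 regions in place of 59. No paired analysis was possible because replicates share a column, and for the same reason no replicate could be left out. Depth limits the low values most, because few reads lie behind them.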
